A study of Mus musculus with 6 samples.

Results

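The mitochondrially encoded genes are the 37 genes carried by the mouse mitochondrial DNA: 13 mRNAs, 2 rRNAs and 22 tRNAs. They were chosen as every gene of the table whose identifier maps to a mouse symbol that starts with mt-, which gave 37 of 45706 genes, with no use of measured values. RNA sequencing was done on primary fibroblasts grown out of digested lungs of wild-type mice. Of these cultures, 3 control samples were compared with 3 that received recombinant mouse DKK1 (30 ng/ml) over 24 h, to find genes that respond to DKK1, a secreted antagonist of Wnt signalling that binds the Wnt co-receptors of the LRP family. The labels give no age, sex or strain of the mice, no vehicle for the controls, and no statement on whether the samples of a group are separate animals or cultures, so p-values measure only the spread between these samples, which may be technical.

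Mitochondrial DNA is a small circle that is copied into RNA along both strands as long precursors, by a dedicated RNA polymerase and transcription factors that the nucleus encodes. Most tRNAs lie between the larger genes, and their excision releases the mRNAs and rRNAs, so genes of one strand start from shared precursors and reach different levels mainly through processing and decay. The mRNAs encode core subunits of respiratory complexes I, III and IV and of the ATP synthase, complex V, and the rRNAs and tRNAs serve the translation of these mRNAs inside the organelle. All other subunits of these complexes come from the nucleus.

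Library totals ranged from 22565917 to 34727102 counts, so that 3 counts correspond to 0.0864 to 0.133 CPM, the unit of counts scaled to the library total. The fibroblast label was checked against 9 markers of that cell type (collagens, Pdgfra, Vim and others), all of which had counts. Their summed level was 13366 to 15063 CPM in control libraries and 12590 to 14255 CPM with DKK1, with Lum at only 1.77 to 2.72 CPM in controls. A list of 5 smooth muscle or myofibroblast markers was also high, at 8971 to 10031 CPM in controls and 7676 to 8966 CPM with DKK1. The markers thus do not separate fibroblasts from myofibroblasts or smooth muscle cells. Epithelial, mesothelial, endothelial and leukocyte marker lists summed to between 18.2 and 89.3 CPM in every library, with overlapping groups, and the T cell marker Cd3e was at 0 throughout. Replicate 3 of both groups was the highest in all 4 of these lists. Same-numbered control and DKK1 libraries deviated together from their group means (r = 0.230 to 0.405 across 14635 genes). Values with the replicate number as a block, a fit that compares DKK1 with control within each number, are therefore given beside those without it.

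Neighbouring mitochondrial genes share bases at 9 places, where a read inside the shared stretch cannot be given to a single gene. The 3 longest of these stretches and that of mt-Ts1 are shown first, and the other 5, of 1 to 3 bases each, are not shown. All positions below are on the mitochondrial chromosome (chrM) or the named nuclear chromosome of mouse assembly GRCm38, and all sequences were read from GENCODE M21 transcripts. The end of mt-Atp8 and the start of mt-Atp6 overlap by 43 bases on the plus strand, within chrM:7907-7989. The mt-Nd4l and mt-Nd4 reading frames overlap by 7 bases, within chrM:10147-10193. The ends of mt-Nd5, on the plus strand, and of mt-Nd6, on the minus strand, face each other and overlap by 14 bases, within chrM:13532-13585. The tRNA gene mt-Ts1 lies on the minus strand at chrM:6870-6938, and its last 3 bases are opposite the end of mt-Co1. Capitals mark the shared bases, and each run is written 5′ to 3′ on the plus strand except mt-Ts1, which is written on its own strand.
mt-Atp8 and mt-Atp6: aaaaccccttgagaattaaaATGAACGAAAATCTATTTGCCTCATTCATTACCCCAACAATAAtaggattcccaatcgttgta
mt-Nd4l and mt-Nd4: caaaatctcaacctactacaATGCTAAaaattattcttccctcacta
mt-Nd5 and mt-Nd6: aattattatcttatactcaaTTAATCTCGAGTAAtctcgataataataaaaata
mt-Ts1: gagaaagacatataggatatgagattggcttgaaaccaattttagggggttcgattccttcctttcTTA

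Pieces of mitochondrial DNA have also been inserted into nuclear chromosomes, where they are annotated as pseudogenes, and these copies bear directly on the values below. In all, 15 annotated nuclear genes matched a mitochondrial gene at 90% identity or more over at least 80% of their transcript, 10 of them with counts and 5 at 0 in every library. On chromosome 1, 7 of them form one block on the minus strand, chr1:24611535-24616197, and follow the order from mt-Co1 to mt-Nd4. Gm28661 (chr1:24614885-24615565) is identical to mt-Co2 at 681 of 681 bases. Gm10925 matches mt-Atp6 at 678 of 678, Gm28437 matches mt-Co3 at 783 of 783, Gm10222 matches mt-Nd4l at 294 of 294, and Gm28439 matches the first 876 bases of mt-Nd4 at every position. The other 2 differ from their mitochondrial gene by a single base over the aligned stretch: T9461C separates Gm28438 from mt-Nd3 (344 of 345 bases identical), and A6393T separates Gm29216 from the end of mt-Co1 (482 of 483). Positions are counted from 1 along chrM, and the mitochondrial base is given before the base of the copy. The stretches with these differences (chrM:9459-9481 and chrM:6390-6413) and the first bases of mt-Co2 and its copy (chrM:7013-7072) show how little separates the reads; capitals mark the differing base.
mt-Nd3: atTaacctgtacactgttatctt
Gm28438: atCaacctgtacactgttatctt
mt-Co1: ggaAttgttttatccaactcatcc
Gm29216: ggaTttgttttatccaactcatcc
mt-Co2 and Gm28661: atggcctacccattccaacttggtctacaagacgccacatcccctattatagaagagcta

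The deposited counts were divided between these genes and their copies. RSEM, the program that made them, assigns a read with several possible sources in fractions, so the division between identical sequences is an estimate. For mt-Co2, a core subunit of complex IV, the copy was given 49.3%, 55.2% and 51.8% of the summed counts in control replicates 1 to 3 and 47.9%, 47.5% and 48.7% in DKK1 replicates 1 to 3. Every DKK1 library thus assigned a smaller part to the copy than any control library. For mt-Atp6, a subunit of the ATP synthase, the part given to the copy was 59.9%, 60.9% and 61.0% in controls and 53.6%, 62.0% and 56.5% with DKK1, and the groups overlapped. In controls the division was least steady for mt-Nd4l, a small subunit of complex I, with 64.6%, 52.4% and 73.3%. With DKK1 it was 59.6%, 61.9% and 55.8%, an SD of 3.08 points, below that of mt-Nd3 (6.09) and mt-Atp6 (4.27). For mt-Co3 the copy was given between 46.2% and 52.7%, and for mt-Nd3 between 56.4% and 70.4%, over the 6 libraries. Copies took little from the 2 longest of the genes concerned, at most 3.00% from mt-Co1 and at most 1.24% from mt-Nd4. The control replicates of mt-Nd4l had a coefficient of variation of 28.8% in the deposited counts and of 1.21% once its copy was added. Each gene is therefore reported both as deposited and summed with its copies. A sum cannot separate mitochondrial from nuclear RNA of the same sequence.

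**Figure D1:**
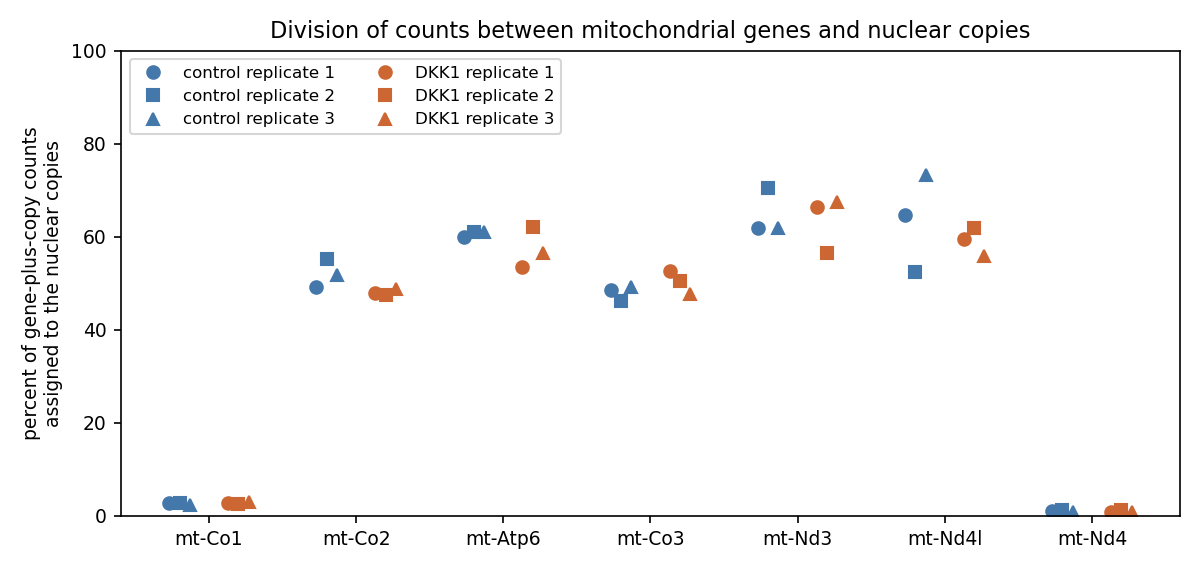
Percent of the counts of a mitochondrial gene plus its nuclear copies that was assigned to the copies (y axis), for the 7 genes with a copy on chromosome 1 (x axis), with 1 point per library and the group given by colour. Points for mt-Co2 lie between 47.5% and 55.2% and those for mt-Nd4l are spread from 52.4% to 73.3%, while mt-Co1 and mt-Nd4 stay at or below 3.00%.

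Mitochondrially encoded RNA took a slightly larger part of the library after DKK1. Together the 37 genes held 1.49%, 1.55% and 1.55% of all counts in control replicates 1 to 3 and 1.63%, 1.70% and 1.68% in DKK1 replicates 1 to 3. The groups did not overlap, and the mean moved from 1.53% ± 0.0342 to 1.67% ± 0.0372 (SD, n = 3 each), a ratio of 1.09. Within the same-numbered pairs the ratio was 1.09, 1.10 and 1.08. The mRNAs accounted for most of it, with 1.40% ± 0.0369 in controls and 1.51% ± 0.0352 with DKK1. The rRNAs were a smaller part but moved proportionally more, from 0.135% ± 0.00528 to 0.161% ± 0.00956, a ratio of 1.20. The nuclear copies held 0.267% ± 0.0129 and 0.279% ± 0.0112, and these groups overlapped. With the copies counted as mitochondrial, the share was 1.80% ± 0.0469 in controls and 1.95% ± 0.0481 with DKK1, again without overlap. No p-value is given for these summed shares. The 5 smooth muscle markers, among them Acta2, were lower with DKK1: their sum was 8971 to 10031 CPM in controls and 7676 to 8966 CPM with DKK1, and edgeR called 1 of the 5 without the block and 5 of 5 lower with it (4.46% of all genes were lower with the block). The fibroblast markers also moved: their sum was lower with DKK1 in all 3 same-numbered pairs, and edgeR called 0 of the 9 without the block and 7 with it, 5 lower and 2 higher. The sum of the leukocyte markers was also lower with DKK1 in all 3 pairs, and of the 4 tested, 1 was called higher and 1 lower with the block. The part of these shifts in the mitochondrial share was not tested. In such bulk samples, a change in the share of one kind of cell and a change in the RNA of each cell cannot be told apart.

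**Figure D2:**
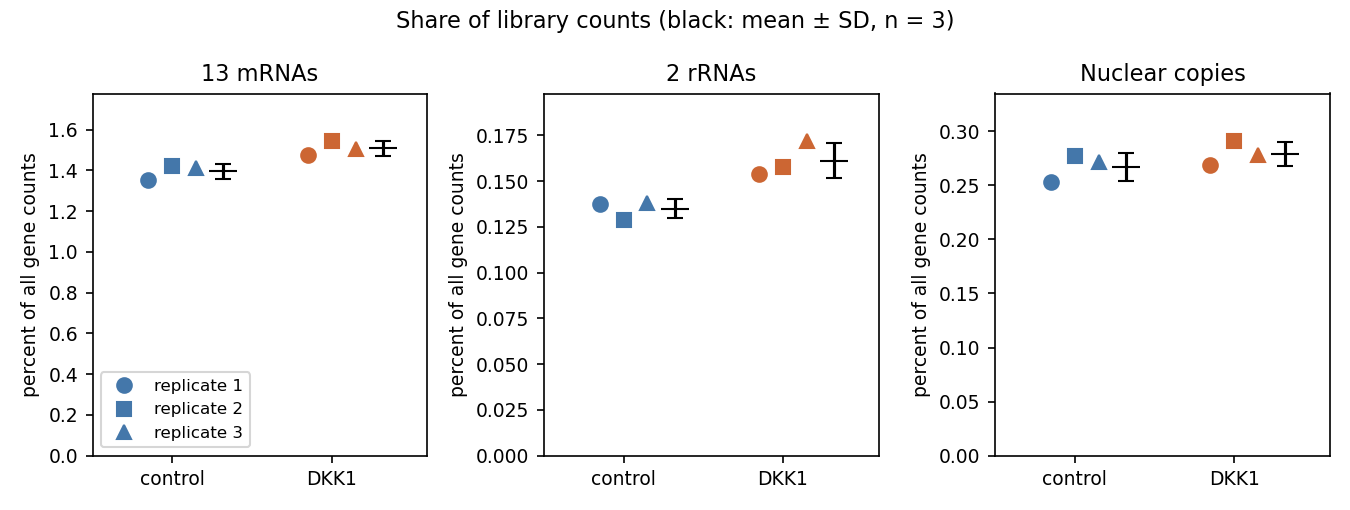
Share of all gene counts in percent (y axis, from 0) held by the 13 mitochondrial mRNAs, the 2 mitochondrial rRNAs and their annotated nuclear copies, in control and DKK1 libraries. Coloured points are libraries, with the replicate number given by shape, and black bars are mean ± SD (n = 3). The mRNA and rRNA points do not overlap between groups, and those of the nuclear copies do.

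Gene by gene, 15 of the 37 genes had enough counts to be tested: all mRNAs and both rRNAs. Without the replicate block, edgeR called 0 of the 15 in either direction at an adjusted p under 0.05, where 0.895% of all 14635 tested genes were called. At an unadjusted p under 0.05, 10 of the 15 were higher with DKK1 and 0 lower, beside 5.68% of all tested genes that were higher. Without the filter on low counts edgeR called 4 of them higher (mt-Rnr2, mt-Co2, mt-Atp6 and mt-Nd6), beside 1.01% of all genes. This fit and those of DESeq2 and limma-voom used the deposited counts and were not repeated with copies summed. DESeq2 called 5 of the 15 higher (mt-Rnr1, mt-Rnr2, mt-Co2, mt-Atp6 and mt-Nd6), with 1.44% of all genes higher. The limma-voom fit called 0 of the 15, with 10 at an unadjusted p under 0.05. Its shares over all genes are not given here, so neither limma-voom count can be set against them. With the replicate block, edgeR called 11 of the 15 higher and 0 lower, beside 4.96% of all genes called higher and 4.46% called lower. The 4 not called were mt-Atp8, mt-Co3, mt-Nd3 and mt-Nd4l. Leaving out the replicate 2 pair from the blocked fit reduced the 11 to 8, beside 2.58% of all genes called higher, since mt-Rnr1 (edgeR adjusted p = 0.0501), mt-Co1 (0.168), mt-Nd4 (0.104) and mt-Cytb (0.136) were lost and mt-Nd4l (0.0138) was gained. Leaving out the replicate 1 pair gave 13, beside 4.58% of all genes, with mt-Nd3 and mt-Nd4l gained. With the copies summed and the block, 13 were called higher, beside 5.07% of all genes, and the 13 include all of the 11. mt-Atp8 and mt-Nd4l remained uncalled. The median log2 fold change of the 15 was 0.13 without the block, and that of all tested genes was -0.00091. As deposited, the CPM of 12 of the 15 did not overlap between groups and was higher with DKK1, which held for 9.4% of all genes, and with the copies summed it was 14, all but mt-Nd4l. The 14 were also higher in all 3 same-numbered pairs, as were 22.3% of all genes.

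**Figure D3:**
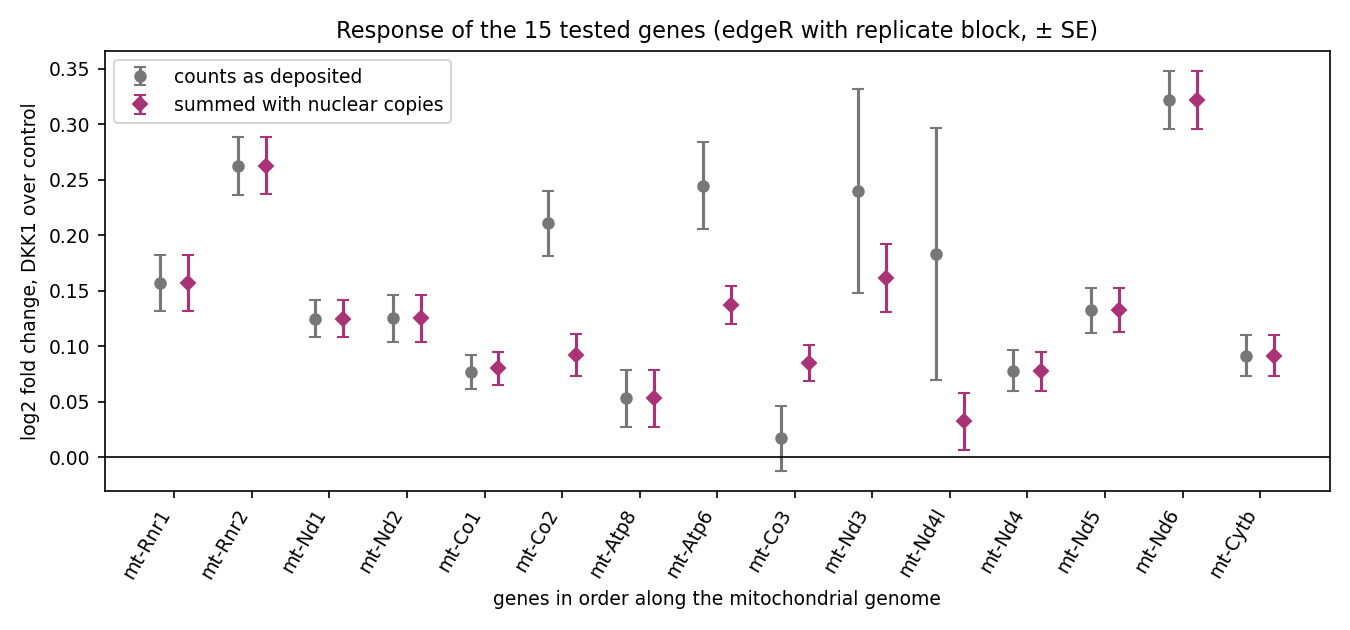
Log2 fold change of DKK1 over control from edgeR with the replicate block (y axis, bars ± SE) for the 15 tested genes in their order along the mitochondrial genome (x axis), as deposited (grey) and summed with nuclear copies (purple). All estimates lie above 0, with the highest at mt-Nd6 (0.32) and mt-Rnr2 (0.26), and summing brings mt-Co2 to 0.09, mt-Atp6 to 0.14 and mt-Co3 to 0.09.

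The size of these changes has to be read beside the base composition of the genes. The 15 tested genes have a GC content of 31.9% to 41.1%, and the median of all tested genes is 50.7%. When each library's trend of counts against GC content and transcript length was removed, with copies summed and the block kept, edgeR called 6 of the 15 higher and 0 lower, beside 4.85% of all genes higher. The 6 were mt-Rnr1 (log2 fold change 0.10, adjusted p = 0.0214), mt-Rnr2 (0.21, 3.6e-05), mt-Nd1 (0.06, 0.0296), mt-Atp6 (0.08, 0.0075), mt-Nd5 (0.07, 0.0186) and mt-Nd6 (0.27, 2.42e-06), all from edgeR. With the same correction and block but the deposited counts it called 7 higher, beside 4.8% of all genes. With copies summed, the correction left mt-Co1, mt-Co2, mt-Co3, mt-Nd4 and mt-Cytb at 0.02 to 0.03, and mt-Atp8 (-0.04) and mt-Nd4l (-0.05) changed sign. The part of GC content in the uncorrected values was not tested beyond this correction.

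Complex I, which takes electrons from NADH, has 7 mitochondrially encoded subunits. The mRNA for its ND6 subunit, mt-Nd6 (chrM:13552-14070), is the only mRNA of the minus strand. It was at 139, 154 and 155 CPM in control replicates 1 to 3 and at 170.1, 201 and 191 CPM in DKK1 replicates 1 to 3. All DKK1 libraries exceeded all controls, and no other mRNA had a larger log2 change with copies summed: 0.32 (SE 0.07), with an adjusted p of 0.0871 in edgeR without the block. With copies summed and the block mt-Nd6, which has no copy with counts itself, rose by the same 0.32 (SE 0.03, edgeR adjusted p = 2.46e-06), and in the fit of the deposited counts these p-values were 0.0875 and 3.74e-06. Whether counting used the strand is not given in the sources used here, so reads of this stretch from the plus-strand precursor cannot be told apart from mt-Nd6.

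The plus-strand complex I mRNAs moved less. mt-Nd1 (chrM:2751-3707), which encodes a membrane subunit near the quinone site, was at 1332, 1417 and 1397 CPM in controls and 1476, 1546 and 1515 CPM with DKK1, without overlap. On the log2 scale the difference was 0.12 (SE 0.04, edgeR adjusted p = 0.21), and with the block it rose by 0.13 (SE 0.02, edgeR adjusted p = 0.000244). The mRNAs for the antiporter-like subunits of the membrane arm, mt-Nd2, mt-Nd4 and mt-Nd5, each rose with the block, by 0.13, 0.08 and 0.13 on the log2 scale (edgeR adjusted p = 0.00169, 0.0149 and 0.000688). Without the block their edgeR adjusted p was 0.34, 0.517 and 0.332. mt-Nd2 (chrM:3914-4951) was at 761 ± 36.1 CPM in controls and 832 ± 29.4 CPM with DKK1, and mt-Nd4 (chrM:10167-11544) at 1270.3 ± 46.5 and 1345 ± 25.5 CPM (SD, n = 3 each). For mt-Nd5 (chrM:11742-13565) control values were 1034, 1135 and 1107 CPM and DKK1 values 1171, 1261 and 1171 CPM, so the lowest DKK1 libraries lay above the highest control.

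The remaining complex I mRNAs, mt-Nd3 and mt-Nd4l, are the short ones with an abundant nuclear copy. As deposited, mt-Nd3 (chrM:9459-9806) was at 46.5, 41.8 and 50.4 CPM in controls and 47.6, 65.1 and 50.0 CPM with DKK1, and the groups overlapped. Summed with Gm28438 it was at 122, 141 and 133 CPM in controls and 141, 149 and 154 CPM with DKK1, and no longer overlapped. The sum rose by 0.16 on the log2 scale with the block (SE 0.03, edgeR adjusted p = 0.00364, against 0.336 without it). As deposited, mt-Nd4l (chrM:9877-10173) was at 65.2, 86.2 and 48.0 CPM in controls and 77.6, 72.6 and 78.3 CPM with DKK1, with overlapping groups. Its log2 difference was 0.18 (edgeR adjusted p = 0.788, and 0.404 with the block). Summed with Gm10222 it was at 184.2, 181.0 and 180.0 CPM in controls and 191.9, 190.3 and 176.9 CPM with DKK1. DKK1 replicate 3 was the lowest of the 6 libraries, and the sum was not called with or without the block (log2 fold change 0.03, edgeR adjusted p = 0.526 with it and 0.859 without it).

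Complex III has a single mitochondrially encoded subunit, cytochrome b. Its mRNA mt-Cytb (chrM:14145-15288) was at 1941, 2041 and 1985 CPM in controls and 2128, 2202 and 2051 CPM with DKK1. The groups did not overlap, with DKK1 replicate 3 close to control replicate 2. mt-Cytb rose by 0.09 on the log2 scale with the block (SE 0.02, edgeR adjusted p = 0.0061), and the fit without it gave the same 0.09 (SE 0.04, adjusted p = 0.424).

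Complex IV, cytochrome c oxidase, passes electrons to oxygen, and its 3 mitochondrially encoded subunits form its core. mt-Co1 (chrM:5328-6872), rank 6 of all genes by mean CPM, was at 4846, 5010 and 5112 CPM in controls and 5127, 5390 and 5331 CPM with DKK1. The lowest DKK1 library lay just above the highest control, and mt-Co1 rose by 0.08 with the block (SE 0.02, edgeR adjusted p = 0.00535, against 0.437 without it). For mt-Co2 the deposited values and the sums gave different sizes. mt-Co2 alone (chrM:7013-7696) was at 859, 821 and 873 CPM in controls and 969.7, 1037 and 956.9 CPM with DKK1, a log2 difference of 0.21 (edgeR adjusted p = 0.0634, and 0.000382 with the block). Summed with its copies it was at 1694, 1832 and 1810.4 CPM in controls and 1862, 1976.5 and 1866 CPM with DKK1. The sum rose by 0.09 with the block (SE 0.02, edgeR adjusted p = 0.00612, against 0.488 without it), beside 0.21 for the deposited gene alone. mt-Co3 (chrM:8607-9390) went the other way. Alone it was at 709.7, 767.1 and 716.3 CPM in controls and 684.9, 757.4 and 788.4 CPM with DKK1, with overlapping groups and a log2 difference of 0.02 (edgeR adjusted p = 0.958, and 0.812 with the block). Summed with Gm28437 it was at 1377, 1427 and 1409.8 CPM in controls and 1447, 1532 and 1507 CPM with DKK1, and rose by 0.09 with the block (SE 0.02, edgeR adjusted p = 0.00436, against 0.385 without it). The copy Gm28437 was itself called higher with the block (0.15, edgeR adjusted p = 0.00238), whereas Gm28661 was at -0.02 (0.721), Gm10925 at 0.06 (0.233) and Gm10222 at -0.05 (0.825), all from edgeR with the block. The copies of the other genes were at 0.18 for Gm29216 (edgeR adjusted p = 0.0519), 0.12 for Gm28438 (0.476) and 0.01 for Gm28439 (0.962) in the same fit. With copies summed, the log2 fold changes of mt-Co1, mt-Co2 and mt-Co3 were thus 0.08, 0.09 and 0.09.

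The ATP synthase subunits a and 8 come from mt-Atp6 and mt-Atp8, which share a transcript. mt-Atp6 (chrM:7927-8607) was at 460.6, 485.0 and 473.2 CPM in controls and 587.8, 513.0 and 591.7 CPM with DKK1. DKK1 replicate 2 lay closer to the controls than DKK1 replicates 1 and 3. The copy was given 62.0% of the summed counts in that library, against 53.6% and 56.5% in DKK1 replicates 1 and 3. As deposited, the log2 difference was 0.25 (SE 0.05, edgeR adjusted p = 0.101, and 0.0011 with the block). Without DKK1 replicate 2 it was 0.31 (edgeR adjusted p = 0.0307). This was the only call among the 15 genes when any 1 library was left out of the fit without the block. Of all genes, 0.34% were called higher without DKK1 replicate 2. No leave-out fit was made with copies summed for mt-Atp6. Summed with Gm10925 it was at 1148, 1241 and 1214 CPM in controls and 1266, 1349.6 and 1360.4 CPM with DKK1, and rose by 0.14 with the block (SE 0.02, edgeR adjusted p = 0.000113, against 0.247 without it). mt-Atp8 (chrM:7766-7969), with no nuclear copy above the threshold, was at 160.7, 158.5 and 155.8 CPM in controls and 161.1, 167.5 and 165.9 CPM with DKK1. The lowest DKK1 value and the highest control value nearly met, and it was not called (log2 fold change 0.05, edgeR adjusted p = 0.662, and 0.275 with the block).

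The rRNAs form the 2 subunits of the mitochondrial ribosome. mt-Rnr2 (chrM:1094-2675), the 16S rRNA, was at 1219, 1137 and 1227 CPM in controls and 1369, 1403 and 1545 CPM with DKK1. Its groups were well apart, by 0.26 on the log2 scale (SE 0.05, edgeR adjusted p = 0.0571), and it rose with the block (0.26, SE 0.03, edgeR adjusted p = 2.11e-05). mt-Rnr1 (chrM:70-1024), the 12S rRNA, was at 156.8, 151.4 and 156.1 CPM in controls and 170.5, 173.6 and 175.2 CPM with DKK1. Its groups did not overlap either, and lay 0.16 apart on the log2 scale (SE 0.03, edgeR adjusted p = 0.0737, and 0.0011 with the block). The method of library preparation is not given in the sources used here, and poly(A) selection and rRNA depletion treat these RNAs differently from mRNAs. Nuclear rRNA genes in the table moved in the opposite direction, with 0.129% ± 0.00256 of counts in controls and 0.0866% ± 0.00554 with DKK1 (SD, n = 3 each), and the part of rRNA removal in the mt-Rnr values was not tested.

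The tRNAs were almost unmeasured. They are 59 to 75 bases long, with 14 on the plus strand and 8 on the minus strand, and 15 of the 22 were at 0 in every library. The other 7 had at most 6 counts in any library, and all tRNAs together had 3, 2 and 0 counts in control replicates 1 to 3 and 6, 6 and 8 counts in DKK1 replicates 1 to 3. These sums did not overlap between groups. Most of these counts fell on mt-Ts1, the serine tRNA shown above, with 2, 2 and 0 counts in control replicates 1 to 3 and 4, 3 and 6 counts in DKK1 replicates 1 to 3. The counts of single tRNAs are at or near the floor of 3 counts and did not pass the low-count filter, so no fold is given. The 7 tRNAs with counts entered only the fits without that filter: edgeR called 0 of them (adjusted p = 0.808 for each, with 0 at an unadjusted p under 0.05), and DESeq2 gave them no adjusted p, with unadjusted p-values of 0.247 to 0.857. The remaining tRNAs with any count, mt-Tl1, mt-Ti, mt-Tn, mt-Tc, mt-Te and mt-Tp, had at most 1 count per library.

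Within the mitochondrial mRNA pool with copies included, the part taken by each mRNA with DKK1 was 0.954 to 1.05 times that in controls for 12 of the 13 mRNAs, and 1.17 times for mt-Nd6. By this measure mt-Co1 made up 30.8% ± 0.441 of it in controls and 30.4% ± 0.413 with DKK1, and mt-Cytb 11.96% ± 0.149 and 11.9% ± 0.350 (SD, n = 3 each). The groups overlapped for all mRNAs but mt-Nd1 and mt-Nd6. Within same-numbered pairs, mt-Co1 and mt-Nd4l took a smaller part with DKK1 in every pair. mt-Atp6 and mt-Nd5 took a larger part in every pair, as did mt-Nd1 and mt-Nd6. Both replicate 3 libraries had mt-Nd5 at 6.58%, so that step was minute. mt-Nd1 made up 8.29%, 8.34% and 8.30% in controls and 8.46%, 8.42% and 8.51% with DKK1, and mt-Nd6 had 0.899% ± 0.0293 in controls and 1.05% ± 0.0642 with DKK1. In the deposited counts without copies the parts moved further, from 0.941 times for mt-Co3 to 1.11 times for mt-Atp6 among the same 12 mRNAs, and 1.16 times for mt-Nd6. There the groups were apart for mt-Nd1 (1.01 times), mt-Nd6 and also mt-Co2 (1.07 times), all higher with DKK1. They were also apart for mt-Atp8 (0.963 times), which was lower. By CPM, the groups of 9.4% of all tested genes were apart with DKK1 higher. No such share is given here for parts of a pool, so these separations cannot be set against one. Per 100 counts of plus-strand mRNA with copies, mt-Nd6 had 0.874, 0.914 and 0.932 counts in control replicates 1 to 3 and 0.985, 1.11 and 1.09 in DKK1 replicates 1 to 3. The groups did not overlap. An exact two-sided permutation test gave p = 0.1, the smallest that 3 samples against 3 allow. Benjamini-Hochberg adjustment over the 5 ratios computed brought this permutation p to 0.125. The ratios were not set in advance, and mt-Nd6 and mt-Rnr2 had the largest log2 changes with copies summed. Their ratios therefore give no separate support. The rRNAs had 8.57, 7.58 and 8.22 counts per 100 counts of mRNA in controls and 8.83, 8.58 and 9.66 with DKK1, again without overlap and with the same exact permutation p = 0.1. mt-Rnr2 counts per mt-Rnr1 count were 7.78, 7.51 and 7.86 in controls and 8.03, 8.08 and 8.82 with DKK1 (exact permutation p = 0.1), without overlap. Both rRNA genes lie on the plus strand with mt-Tv, a valine tRNA gene, between them. The ratio of mt-Atp6 with its copy to mt-Atp8 was 7.59 ± 0.384 in controls and 8.04 ± 0.171 with DKK1 (exact permutation p = 0.1). mt-Nd5 per 100 counts of mt-Cytb was 54.9 ± 1.41 and 56.5 ± 1.26, with overlapping groups (exact permutation p = 0.3 between unpaired samples). Within pairs it went from 53.3 to 55.0, from 55.6 to 57.3 and from 55.8 to 57.1, and each of the 5 ratios was higher with DKK1 in all 3 pairs.

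Levels of these RNAs per unit of length spread widely. On the scale of CPM per kb of gene length with copies included, control libraries had mt-Co1 at the top with 3313 ± 84.9, followed by mt-Co2 at 2600.3 ± 109. mt-Co3 (1792 ± 32.0), mt-Atp6 (1764 ± 69.8) and mt-Cytb (1738.5 ± 44.0) followed, each differing from the next of these by less than the larger SD of the pair, and mt-Nd1 came next at 1444 ± 46.5. mt-Nd4 stood at 931 ± 34.6. mt-Atp8 (776 ± 12.04), mt-Rnr2 (755 ± 31.6) and mt-Nd2 (733 ± 34.8) likewise differed from the next of these by less than the larger SD, and so did mt-Nd4l (612 ± 7.38) from mt-Nd5 (599 ± 28.8). The lowest were mt-Nd3 (379 ± 28.0), the minus-strand mt-Nd6 (288 ± 17.3) and mt-Rnr1 (162 ± 3.04). Plus-strand mRNAs, which begin on one precursor, thus differed widely by this measure, from 3313 for mt-Co1 to 379 for mt-Nd3. Lengths were those of the whole annotated gene, without correction for fragment size. Library preparation can treat rRNAs differently from mRNAs, so the place of the rRNAs in this order is uncertain. With copies included each complex IV mRNA lay above each complex I mRNA. That order turned in the deposited counts without copies, where mt-Co2 (1244 CPM per kb) and mt-Co3 (932) lay below mt-Nd1 (1444) in controls. With DKK1 the levels were 3515 ± 94.0 for mt-Co1, 910 ± 59.1 for mt-Rnr2, 361 ± 30.6 for mt-Nd6 and 181 ± 2.49 for mt-Rnr1 (SD, n = 3 throughout).

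**Figure D4:**
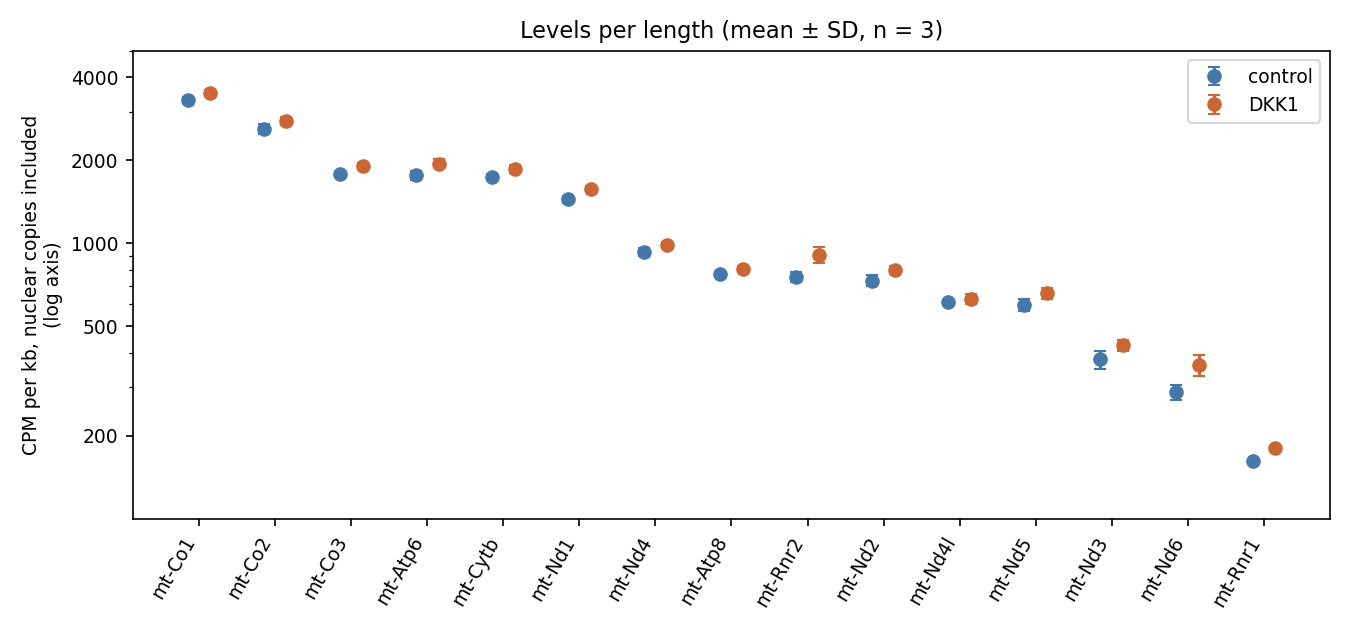
Level in CPM per kb of gene length, nuclear copies included (y axis, log scale), for the 15 tested genes in descending order of the control mean (x axis), as mean ± SD of 3 libraries per group; where no bar shows, it is smaller than the point. Control means run from 3313 for mt-Co1 to 162 for mt-Rnr1, and the DKK1 mean lies above the control mean for every gene.

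The nuclear genes that serve mitochondrial RNA were examined beside it, in lists for transcription, RNA processing and stability, DNA maintenance, biogenesis regulators, the mitochondrial stress response, nuclear subunits of the same complexes, and mitochondrial ribosomal proteins. Of 229 tested genes over these lists, edgeR called 0 higher and 1 lower without the block, and 1 higher and 8 lower with it, where 0.895% of all genes were called without the block and 4.96% were higher and 4.46% lower with it. At an unadjusted p under 0.05 and without the block, 8 were higher and 7 lower, beside 5.68% and 4.87% of all genes, and DESeq2 called 2, beside 2.04% of all genes. The lists together thus held no larger share of calls than all genes did. None of the 10 tested transcription genes was called in either fit (0 at an unadjusted p under 0.05 in both). Polrmt, the mitochondrial RNA polymerase, was at 32.3 ± 2.00 CPM in controls and 33.0 ± 0.645 CPM with DKK1 (edgeR adjusted p = 0.938, and 0.868 with the block). Tfam, which packages mitochondrial DNA and starts its transcription, was at 25.5 ± 1.83 and 25.8 ± 0.819 CPM (edgeR adjusted p = 0.982 and 0.95).

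Among 25 tested genes for processing and stability, 1 was called with the block, where 4.96% of all genes were higher and 4.46% lower. At an unadjusted p under 0.05, 5 of the 25 were higher and 1 lower without the block, beside 5.68% and 4.87% of all genes, and 5 were higher and 2 lower with it, beside 20.7% of all genes in either direction. The 5 that were higher, the same in both fits, are Ptcd3, Pnpt1, Nsun4, Mtpap and Mrm3, the last 4 with an edgeR adjusted p of 0.0502 to 0.0973 with the block and named after their values were seen. Ptcd3, a protein of the small mitochondrial ribosomal subunit, was at 43.5, 43.9 and 44.0 CPM in controls and 47.4, 49.5 and 50.0 CPM with DKK1, and rose by 0.16 with the block (edgeR adjusted p = 0.0187, against 0.164 without it). The call was lost without the replicate 2 pair (0.169) and without the replicate 3 pair (0.093). It was also lost in the blocked fits with the GC and length trend removed, where the edgeR adjusted p was 0.142 as deposited and 0.158 with copies summed, and 0 genes of the lists were then called higher. Lrpprc and Slirp, which bind together and stabilise mitochondrial mRNAs, were not called: Lrpprc was at 61.6 ± 1.59 and 60.4 ± 1.41 CPM (edgeR adjusted p = 0.829 and 0.629) and Slirp at 27.0 ± 0.447 and 26.2 ± 1.93 CPM (0.856 and 0.653). Ppargc1a, a coactivator of mitochondrial biogenesis, had at most 20 counts in a library, at 0.425 ± 0.256 and 0.517 ± 0.209 CPM (edgeR adjusted p = 0.915 and 0.731). None of the 14 DNA maintenance genes or 11 biogenesis regulators was called by edgeR in either fit, and at an unadjusted p under 0.05 there were 0 without the block and 1 regulator, lower, with it.

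The nuclear genome supplies the partners of the mitochondrial proteins. Of 73 nuclear subunits of complexes I, III, IV and V, 0 were called by edgeR in either fit, with 1 gene at an unadjusted p under 0.05 without the block and 3 with it. Over all genes, 0.895% were called without the block and 4.96% higher and 4.46% lower with it, and 10.6% and 20.7% were at an unadjusted p under 0.05 in these fits. Their median log2 fold change was 0.01 in both fits, while that of the 13 mitochondrial mRNAs was 0.12 without and 0.13 with the block as deposited, and 0.09 in both fits with copies summed. After the GC correction with block and copies summed, the medians were 0.03 for the mitochondrial mRNAs, -0.0098 for the nuclear subunits and -0.0086 for all genes, and with the deposited counts that of the mRNAs was 0.06. Of 78 mitochondrial ribosomal proteins 0 were called either, with 2 at an unadjusted p under 0.05 without the block and 5 with it, and a median of 0.02 in both fits. The difference between these lists and the mitochondrial genes was not tested.

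The list named mitochondrial stress response, of transcription factors, enzymes, chaperones and proteases, held the other calls. All were lower, among 12 members with a negative and 6 with a positive log2 fold change. Whether these calls concern mitochondrial stress was not tested. Atf5, a transcription factor of the list, was at 231, 213 and 212 CPM in controls and 184, 184 and 190 CPM with DKK1. It fell by 0.24 on the log2 scale (SE 0.04, edgeR adjusted p = 0.0417, and 0.000128 with the block). When any 1 library was left out of the fit without the block, its edgeR adjusted p was 0.0519 to 0.179, above the threshold, and with the GC trend removed it was 0.0633. With the block, 8 of the 18 tested members fell, beside 4.46% of all genes: Phgdh and Psat1, enzymes of serine synthesis, by 0.22 and 0.10 (edgeR adjusted p = 0.000174 and 0.021), Mthfd2, a mitochondrial folate enzyme, by 0.17 (0.00414), Trib3 by 0.40 (0.0133) and the transcription factor Atf4 by 0.09 (0.0197), together with Atf5, Ddit3 and Asns. Without the replicate 2 pair, the blocked fit called 2 genes over all the lists, both lower, where it had called 9. Of all genes 1.61% were then called lower, where 4.46% had been, and the edgeR adjusted p of Atf5 and Phgdh was then 0.00769 and 0.011. The 6 members on the positive side, Hspa9, Hspd1, Hspe1, Clpp, Clpx and Yme1l1, were named after their values were seen, and none was called. Lonp1, a mitochondrial protease of the same list, was at -0.04 in both fits and not called either. The lowest edgeR adjusted p among them with the block were those of Hspa9 (log2 fold change 0.06, 0.0672) and Hspd1 (0.06, 0.0896). The median of the list was -0.08, and that of all genes -0.00091.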

How the data were processed

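RNA was sequenced from 3 control and 3 DKK1-treated cultures. The authors deposited 1 table of RSEM expected counts (estimated counts per gene), which they made by assigning aligned reads to genes, in fractions where needed, and did not scale. It has 9.62% to 10.6% of values not whole within a tolerance of 0.005. STAR, RSEM, edgeR 4.2.1 and the builds GRCm38 and mm10 are named per the submitters' processing notes; the annotation release, library preparation and strand setting are not given in the sources used here. Identifiers were paired with symbols from a supplied table (45143 of 45706 matched, 98.8%); coordinates, lengths and sequences came from GENCODE M21, which holds 98.7% of the table's transcript identifiers.

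Counts were rounded and tested with edgeR 4.0.16 in R 4.3.3 (filterByExpr with a minimum count of 10, TMM scaling, quasi-likelihood test with the group as the only term, two-sided, Benjamini-Hochberg adjustment over all 14635 genes tested, called at 0.05). Reported SEs are approximate, from the fold change and its F statistic. The same script was tested on simulated counts with 200 changed genes. Numbers in the sample titles are shared by both groups; after subtracting group means, samples with the same number correlated at 0.274, 0.230 and 0.405, so fits with the replicate number as a block are given beside the main one. Nuclear copies were found with blastn 2.17.0 (at least 90% identity over at least 80% of the transcript) and summed with their gene as an alternative. CPM express counts relative to the full total of each library; 3 counts were taken as the floor, which covers counting error only, and reads without molecular identifiers are not independent molecules.

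Alternatives were other scalings, filters and tools (DESeq2 1.42.0, limma 3.58.1), unrounded counts, overlapping genes summed, removal of GC and length trends (mgcv 1.9.3), and each sample left out. Combinations of the block with summed copies, with the GC correction on summed copies, or with a pair left out were added after seeing the data. The 5 ratios among mitochondrial RNAs were not set in advance either. All 13 mRNAs and both rRNAs were named, tRNAs by range; of the nuclear lists, up to 6 called genes each with the smallest p, Polrmt, Tfam, Lrpprc, Slirp and Ppargc1a; Ddit3 and Asns were named beyond that rule, to complete a count. The genes and lists were chosen with earlier results of these data known. Prorp and Ndufb1-ps were not matched to a row and are not used here.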

Additional observations from a re-analysis of the deposited data

How the results depend on the processing

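The share of counts held by the mitochondrial genes was higher with DKK1 by 0.119 to 0.158 percentage points with any 1 library left out, and by 0.138 to 0.15 with other denominators or with the copies included; for the mRNAs alone it was 0.091 to 0.128 and 0.112 to 0.124. Calls depended on the fit. Of the 15 tested genes, 0 were called as deposited without the block, 4 without the low-count filter (mt-Rnr2, mt-Co2, mt-Atp6 and mt-Nd6), 5 by DESeq2, 0 to 1 with a library left out, 11 with the replicate block, 13 with block and summed copies, 7 with block and GC correction, and 6 with all of these. Leaving out a pair from the blocked fit gave 13, 8 and 11. Over all genes, edgeR called 131, and the corresponding numbers were 329, 289, 36 to 139, 1379, 1420, 1425 and 1454, with 1312, 612 and 1059 without a pair; of the libraries, leaving out control replicate 1 or 2 or DKK1 replicate 1 or 2 moved it most (51, 36, 44 and 57). For the nuclear lists, edgeR called 1, then 2 without the filter, 2 by DESeq2, 0 with any library left out, 0 with the GC correction, 9 with the block, 10 with block and summed copies, 8 with block and GC correction, and 8 with copies summed as well, and 9, 2 and 7 without a pair. The causes were not tested.

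Over all alternatives, 12 of the 15 genes kept a positive log2 fold change. The others changed sign: mt-Atp8 to -0.0754 with the GC correction, -0.0719 with that and the block and -0.0376 with copies summed too; mt-Co3 to -0.0467 and -0.0476 under the same GC corrections as deposited, with -0.0217 to 0.0735 leaving out a library and -0.0411 without the replicate 3 pair; and mt-Nd4l to -0.0529 with GC correction, copies and block, with -0.00914 to 0.423 leaving out a library and -0.028 to 0.46 leaving out a pair. Tfam, near 0, was at -0.0296, -0.0307 and -0.0299 in the 3 GC-corrected fits and ranged from -0.0332 to 0.0695 with a library left out (-0.021 without the replicate 3 pair), Polrmt from -0.0313 to 0.0538 with a library left out and -0.0362 to 0.0648 with a pair left out, Slirp from -0.0931 to 0.00935 and Ppargc1a from -0.0689 to 0.856. The tRNAs were at or near the floor of 3 counts, so no fold is given, and why their counts were so low was not tested.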
